A study of Mus musculus with 1119 samples.

Results

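Dmkn, Sbsn, Krtdap, Ly6d, Ly6e and Ly6a, 6 of the 46517 gene rows measured in single cells of the mouse hair follicle, are described here across cell types, ages and plates. They were selected on the levels and correlations seen in these same cells, with no numeric threshold. Their values are therefore a description, and nothing below is a test of them. All 6 were found in each of the 3 tables.

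The study sorted 1119 single cells of back skin and sequenced each one by Smart-seq2, a full-length method that makes 1 library per cell. Cells aged P21 to P27 (postnatal days) came from Lgr5-eGFPiresCreER;R26-tdTomato mice of mixed sex and were sorted on CD34, Pcadherin, GFP, tdTomato, integrin α6 and integrin b1. Lgr5 drives the first reporter, so the GFP gate follows a gene of bulge and hair germ. Per the authors' annotation, they are 39 telogen (resting) bulge stem cells and 71 telogen hair germ cells at P21, 73 hair germ cells of early anagen (growth) at P23 to P24, 16 more of these at P25 to P27, and matrix cells of the next anagen stage at P25 to P27, which came on 3 plates of 55, 76 and 68 cells. The authors label matrix cells as transit-amplifying cells (TACs), a class known as the dividing progeny of the germ. The P30 hair bulb gave matrix cells, 74 to 81 on each of 5 plates, from Lhx2-GFP (CD1) mice of mixed sex, sorted on Sca-1, CD34, Pcadherin, GFP and both integrins. The P30 dermal papilla gave 77 to 87 cells on each of 4 plates, from male K14-H2BGFP;LEF1-RFP mice, sorted on RFP, GFP, CD117 and integrinα9. Sca-1 is the protein of Ly6a, so Ly6a was among the markers of the hair bulb sort, whose part in its level there was not tested. The papilla sort did not name it. No label names an animal, so each group counts as 1 sample and the plates give only a technical spread.

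The first 3 genes lie side by side and encode secreted proteins of stratified epithelia. Suprabasin (Sbsn), dermokine (Dmkn) and keratinocyte differentiation-associated protein (Krtdap) are known from the suprabasal layers of skin, where keratinocytes leave the basal layer and differentiate. The other 3 genes belong to the Ly6/uPAR family, whose members fold into a three-finger domain held by disulfide bonds and are mostly tethered to the outer membrane by a lipid (GPI) anchor. Ly6d is known from keratinocytes and early B-lineage cells, Ly6e as an interferon-induced surface protein, and Ly6a (Sca-1) from blood stem cells, the follicle infundibulum and fibroblasts.

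On mm10 (GRCm38), with positions from GENCODE M21, the secreted genes follow each other on the plus strand of chromosome 7. Sbsn (ENSMUSG00000046056) lies at chr7:30751471-30756134, Dmkn (ENSMUSG00000060962) at chr7:30763756-30781063 and Krtdap (ENSMUSG00000074199) at chr7:30787896-30791097. Together they span 39.6 kb, with 7.62 kb between Sbsn and Dmkn and 6.83 kb between Dmkn and Krtdap. The Ly6 genes lie on chromosome 15: Ly6d (ENSMUSG00000034634) at chr15:74762056-74763620 on the minus strand, Ly6e (ENSMUSG00000022587) at chr15:74955051-74959905 on the plus strand and Ly6a (ENSMUSG00000075602) at chr15:74994877-74998031 on the minus strand. Ly6d is 191.4 kb from Ly6e, and Ly6e is 35 kb from Ly6a.

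The sequences before the starts of the 3 neighbouring secreted genes are shown because these genes were found in overlapping sets of cells. They are taken from RefSeq's promoter windows on GRCm38.p6, plus strand, up to the gene's start in GENCODE: 250 bases for Sbsn (chr7:30751221-30751470) and Dmkn (chr7:30763506-30763755) and the part of it that the table holds for Krtdap (chr7:30787655-30787895). Capitals mark a match to TGANTCA, the motif of AP-1, a dimer of Jun and Fos proteins.
Sbsn: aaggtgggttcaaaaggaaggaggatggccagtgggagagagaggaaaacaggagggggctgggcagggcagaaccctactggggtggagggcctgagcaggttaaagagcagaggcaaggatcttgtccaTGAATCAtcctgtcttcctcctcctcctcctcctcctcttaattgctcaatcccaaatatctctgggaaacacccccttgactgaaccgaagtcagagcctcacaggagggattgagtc
Dmkn: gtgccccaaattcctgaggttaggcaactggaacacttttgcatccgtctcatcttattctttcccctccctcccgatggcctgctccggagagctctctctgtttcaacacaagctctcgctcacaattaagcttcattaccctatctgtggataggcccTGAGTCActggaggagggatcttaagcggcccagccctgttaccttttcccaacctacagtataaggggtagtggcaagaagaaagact
Krtdap: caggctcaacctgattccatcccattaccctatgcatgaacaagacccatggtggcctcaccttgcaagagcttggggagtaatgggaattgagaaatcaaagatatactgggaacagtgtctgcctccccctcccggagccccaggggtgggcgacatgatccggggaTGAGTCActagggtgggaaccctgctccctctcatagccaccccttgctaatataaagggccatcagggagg
Each of the 3 windows holds 1 such match, TGAATCA before Sbsn and TGAGTCA before Dmkn and Krtdap, and so does the window of a second Dmkn start inside the gene (chr7:30776155-30776404). Of 32851 windows of 250 bases in the table, 6.75% hold TGANTCA on either strand. CCACCC, the motif of KLF factors, is in 28.1% of all windows and was found in those of Sbsn (1 match), Krtdap (3) and the internal Dmkn start (2). GAAANNGAA (interferon response), TTCNNNGAA (STAT factors) and AGATAA (the Gata family) are in 7.13%, 7.02% and 9.99% of windows and in none of these 4. A match is a run of letters, not a measured binding site.

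Levels are given as TPM, a share of transcripts corrected for their length, and a cell counts as positive at a TPM of 1 or more. Intervals after a share are exact (Clopper-Pearson) 95% intervals that cover the counting of cells only, and the number of cells limits them. Read depth is not kept in TPM. The median number of genes detected ran from 5328.5 to 7361.5 between the 7 groups, and ERCC spike-ins took a median of 14.4% of TPM in P21 bulge cells, 10.7% in P21 germ cells and 4.24% in P23 to P24 germ cells. The P21 to P27 cells, the hair bulb and the papilla are 3 separate tables, so levels set across them are side by side only. Against the authors' labels, at least 3 of 18 bulge genes were found in 100% of bulge cells. The same held for 97.2% of P21 germ and 96.5% of P25 to P27 matrix cells. At least 3 of 10 germ genes were found in 95.8% of P21 germ cells, though also in 82.1% of bulge cells. These lists include Cd34, Cdh3 (Pcadherin) and Lgr5 (GFP), on which these cells were sorted, so the check is not independent of the sort. Among P25 to P27 matrix cells, 63.8% still had 3 or more germ genes and 70.9% had 3 or more of 15 matrix and inner root sheath genes. By the latter list the P21 germ had 77.5% and the P23 to P24 germ 83.6%, so the bulge and matrix lists did not part these groups. By plate, 1.82%, 7.89% and 11.8% of P25 to P27 matrix cells had 3 or more of 10 cell cycle genes. On the plates of the P30 hair bulb these shares were 46.1% to 52.6%. In the P30 hair bulb, 59.1% of cells had 3 or more of 8 melanocyte genes beside 93.8% with 3 or more matrix genes. Of papilla cells, 88.7% had 3 or more of 10 papilla genes.

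Dmkn was found in every telogen bulge cell and was the 28th highest gene there by mean TPM. In the 39 bulge cells the lowest value was 303.6, the median 869.0 and the highest 1863.2. In the 71 P21 germ cells it ran from 0 through a median of 0 to 1598.1, with 33 cells positive (46.5%, 34.5 to 58.7) at a median of 155.1 among those. The germ thus held cells at bulge level beside cells with none. At P23 to P24, 36 of 73 germ cells were positive (49.3%, 37.4 to 61.3), with a median of 90.3 among them and a highest value of 630.0. The 16 germ cells of P25 to P27 were all positive, from 14.7 to 655.1, with quartiles at 129.4 and 352.4. Of the P25 to P27 matrix cells, 60.8% were positive (53.7 to 67.6), at a median of 295.1 among these and up to 2046.7. The shares of the matrix and both earlier germ groups overlapped in their intervals, as did those of the bulge and the late germ. At P30, 26 hair bulb cells (6.77%, 4.47 to 9.76) and 6 papilla cells (1.78%, 0.656 to 3.83) were positive.

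Sbsn, the gene before Dmkn, had the same order of groups at its upper end. It was present in 38 of 39 bulge cells (97.4%, 86.5 to 99.9), from 0 through a median of 191.8 to 2106.2 TPM. In P21 germ cells it ran from 0 through 4.71 to 456.9, with 37 of 71 positive (52.1%, 39.9 to 64.1). At P23 to P24, 47 of 73 germ cells were positive (64.4%, 52.3 to 75.3), and at P25 to P27, 14 of 16 (87.5%, 61.7 to 98.4). The matrix at P25 to P27 had 60.8% positive cells as well (53.7 to 67.6), with a median of 20.1 over all and a highest value of 2337.5. Neighbouring groups in this order overlapped in their intervals from the bulge down to the P21 germ. The hair bulb, with 69 cells (18%, 14.3 to 22.2), and the papilla, with 12 (3.56%, 1.85 to 6.14), lay below.

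Krtdap, the last gene of the row, was rare before the matrix. It was positive in 1 of 39 bulge cells, 1 of 71 P21 germ cells, 3 of 73 germ cells at P23 to P24 and 1 of 16 at P25 to P27, the last at 815.6 TPM. In the P25 to P27 matrix 35 cells were positive (17.6%, 12.6 to 23.6), up to 5438.9 TPM. The plates differed: 9 of 55, 9 of 76 and 17 of 68 cells were positive, at medians of 67.3, 170.3 and 1430.8 among these. The mean over all matrix cells, 226.2 TPM, was made of plate means of 125.9, 50.2 and 504.1. At P30, 4 hair bulb cells (1.04%) and no papilla cell were positive, the latter allowing a share of up to 0.89% by the limit used for a count of 0, 3 cells of the total.

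Ly6d was likewise highest in the P25 to P27 matrix. There 89 cells were positive (44.7%, 37.7 to 51.9), at a median of 596.0 among them and a highest value of 2419.7 TPM. The plates gave 56.4%, 31.6% and 50%. In the P21 germ 13 of 71 cells were positive (18.3%, 10.1 to 29.3), with a median of 104.1 and a highest value of 776.6. The P23 to P24 germ had 10 of 73 (13.7%, 6.77 to 23.8), the late germ 1 of 16, the bulge 2 of 39, the hair bulb 24 cells (6.25%, 4.05 to 9.16) and the papilla 1. The interval of the matrix overlapped none of these, while those of the P21 and P23 to P24 germ overlapped each other.

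Ly6e had the reverse order at P21. It was positive in 4 of 39 bulge cells (10.3%, 2.87 to 24.2), with a mean of 5.87 TPM, and in 47 of 71 germ cells (66.2%, 54 to 77), from 0 through a median of 48.5 to 947.7 TPM. The germ of P23 to P24, at 51 of 73 (69.9%, 58 to 80.1), and the matrix of P25 to P27, at 68.8% (61.9 to 75.2), had shares within the interval of the P21 germ. The late germ cells had 6 of 16 (37.5%, 15.2 to 64.6). At P30, 56.8% of hair bulb cells (51.6 to 61.8) and 31.5% of papilla cells (26.5 to 36.7) were positive. Ly6e was the most widely found of the 6 genes in both P30 groups.

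Ly6a was rare in the epithelium. No bulge cell of 39 was positive, which by the same 3-cell limit allows a share of up to 7.69%, nor were more than 6 of 71 P21 germ cells (8.45%, 3.16 to 17.5), 3 of 73 at P23 to P24, 2 of 16 late germ cells or 16 matrix cells (8.04%, 4.67 to 12.7). In the hair bulb, where Sca-1 was a sort marker, 9 were positive (2.34%, 1.08 to 4.4). In the papilla 68 were positive (20.2%, 16 to 24.9), with 16.1% to 27.3% over its 4 plates and a highest value of 235.8 TPM. Ly6a has close paralogs. Ly6c1 was found in 11.9%, Ly6c2 in 5.34% and Ly6i in 1.19% of papilla cells, and reads that fit several of them could be split between rows, so these values are uncertain.

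**Figure D1:**
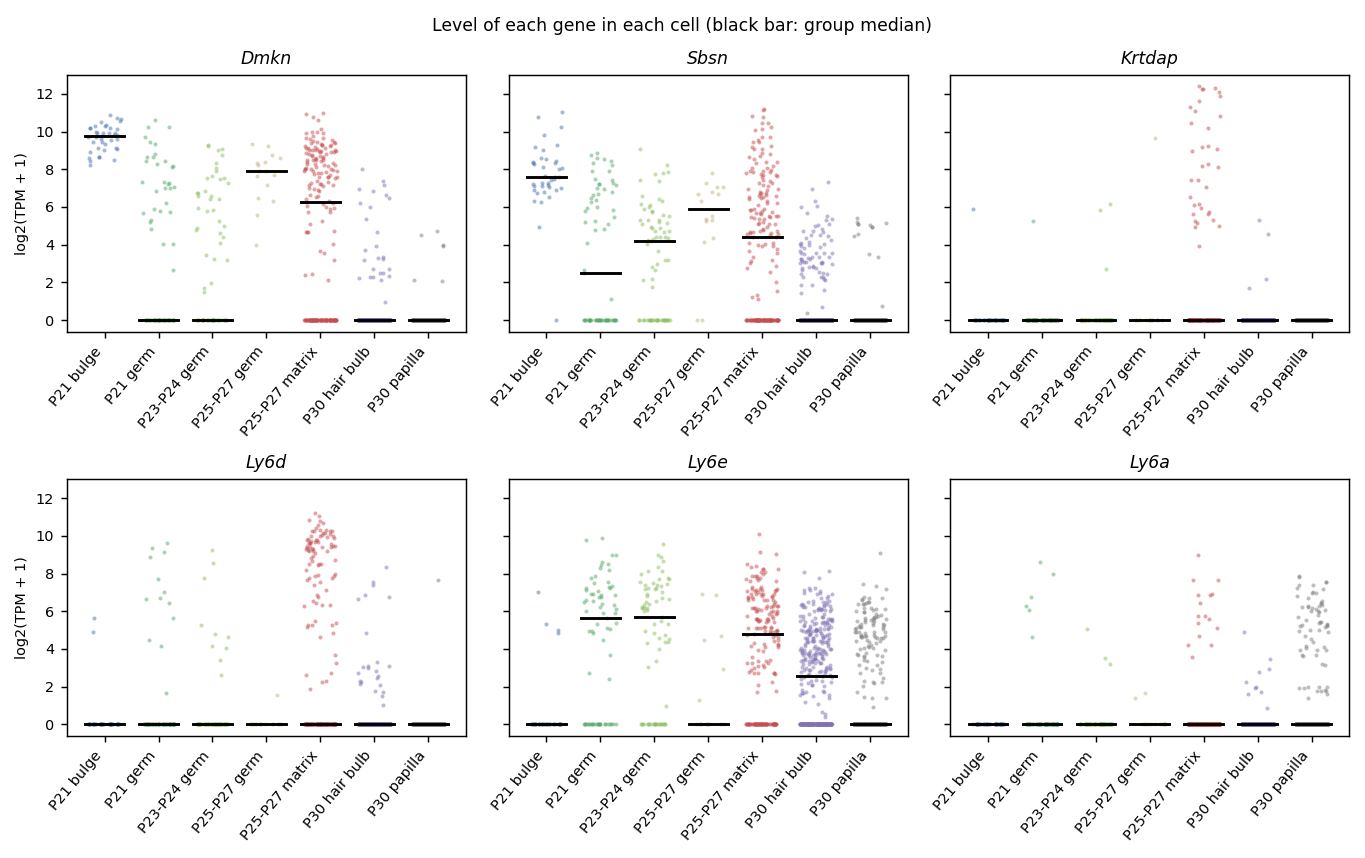
Level of each of the 6 genes as log2(TPM + 1) in every cell, 1 panel per gene and 1 column per group, with a black bar at the group median. Dmkn lies above 8 in all bulge cells and is spread from 0 to the bulge's level in germ and matrix, while Krtdap and Ly6d rise in a part of the P25 to P27 matrix cells and Ly6e is at 0 in most bulge cells.

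**Figure D2:**
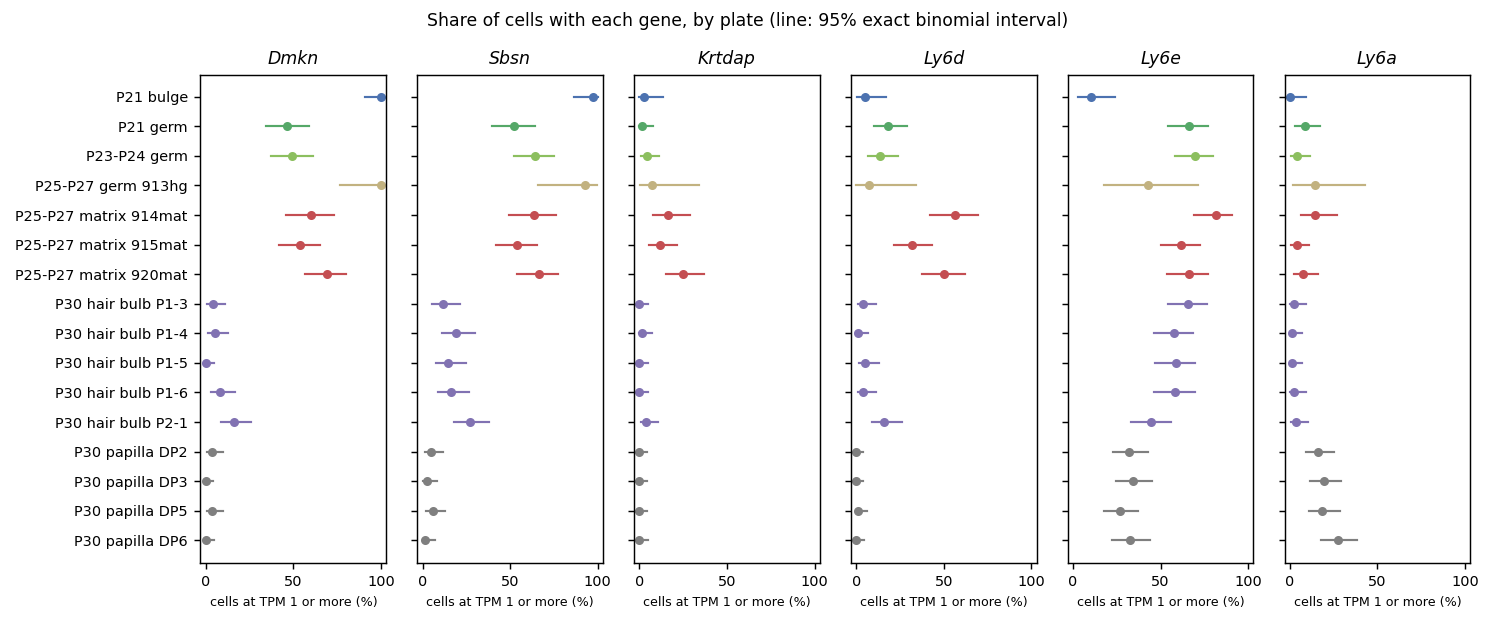
Positive cells, in % of the cells of each plate that holds 10 or more (y), with exact 95% binomial intervals as lines and colours for groups. The 3 matrix plates range from 31.6% to 56.4% for Ly6d, and hair bulb plate P2-1 lies highest of its 5 for Dmkn, Sbsn and Ly6d and lowest for Ly6e.

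One plate of the P30 hair bulb stood apart. On plate P2-1, 16% of 81 cells had Dmkn, 27.2% Sbsn and 16% Ly6d, against at most 8.11%, 19.2% and 5.33% on the other 4 plates, and 44.4% had Ly6e against at least 57.7%. Cells of this plate had a median of 8055.0 genes detected, against 6869.5 to 7389.0, and a summed level of epidermal differentiation genes of 289.2 TPM, against 170.7 to 216.9. Of its cells 75.3% had 3 or more melanocyte genes, against 48.7% to 60% on the others. The part of these in the shares was not tested. Without this plate 4.29% (2.3 to 7.23) of hair bulb cells had Dmkn, 15.5% (11.6 to 20.1) Sbsn and 3.63% (1.83 to 6.4) Ly6d.

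Differences between groups of the P21 to P27 table are differences of mean log2(TPM + 1), given without a p because each group is 1 sample. Genes found in at least 30% of the cells of either group are the background, and a difference of 1 or more (2-fold) is counted. Bulge against germ at P21 gave 6.29 for Dmkn, the largest of 8848 genes, 4.33 for Sbsn, the 8th largest, and -3.82 for Ly6e, the 6th lowest. All 3 members that passed the filter exceeded 2-fold, as did 12.4% of all genes, and since the list was drawn up from these values the count carries no weight of its own. Ly6e passed through the germ alone (66.2% of cells, against 10.3% of bulge cells). The median of all genes was -0.21. Bulge and germ were on 1 plate each, so cell type and plate cannot be told apart, and spike-in shares differed as given above. With TPM rescaled without spike-in, ribosomal and mitochondrial rows the 3 differences were 7.32, 5.22 and -4.67. As log2 ratios of mean TPM + 1 they were 2.59 for Dmkn and 2.22 for Sbsn.

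For the germ of P23 to P24 against that of P21, Dmkn gave -0.37, Sbsn -0.04 and Ly6e 0.15, so 0 of 3 passed 2-fold, against 15.4% of 9541 genes. Ly6d (-0.49) and Ly6a (-0.41) did not pass the filter. As log2 ratios of mean TPM + 1 both were past 2-fold, Ly6d at -1.25 (18.3 against 44.9 TPM) and Ly6a at -3.03 (0.705 against 12.9), and Dmkn gave -0.97. The 16 late germ cells of P25 to P27 against those of P23 to P24 gave 4.60 for Dmkn, the largest of 9406 genes, 2.06 for Sbsn and -2.85 for Ly6e, so 3 of 3 passed, against 20.7% of genes. Of those cells, 14 came from plate 913hg. With the other 2 cells alone the Sbsn difference was -0.54, and that of Dmkn 3.03. As log2 ratios of mean TPM + 1 these differences were 1.81 for Dmkn and 0.83 for Sbsn.

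In the P25 to P27 matrix against the P23 to P24 germ, Ly6d had the largest difference of 9206 genes, 2.94, with 1.64 to 4.13 over the 3 matrix plates. Dmkn followed at 1.75 (1.14 to 2.56 over plates), the 10th largest. Sbsn gave 0.57 (0.09 to 1.02 over plates) and Ly6e -0.62 (-1.10 to 0.46), under 2-fold over all cells. The sign of Ly6e thus differed between plates. As a log2 ratio of mean TPM + 1 Sbsn gave 1.83 (155.5 against 42.9 TPM). The 2 of 4 members past 2-fold stand beside 12.3% of all genes. Ly6d passed the filter only through the matrix (44.7% of cells, against 13.7% in the P23 to P24 germ). Its rank and this count therefore carry no weight of their own. Krtdap, at 1.27, did not pass the filter. Against the late germ of the same age, Ly6d gave 3.59, the largest of 8424 genes, Ly6e 2.23, Dmkn -2.84 and Sbsn -1.48. All 4 were past 2-fold, against 13.3% of genes. Ly6d again passed through the matrix alone (6.25% of late germ cells), and the list was drawn up from these values. This count carries no weight of its own either. Both comparisons share the matrix cells, and the first also shares its germ cells with those above. The Sbsn value turned with the measure: its mean TPM was higher in the matrix, 155.5 against 76.9, which gives 1.01 as a log2 ratio of means, and without plate 913hg it was 1.11. For Dmkn these were -0.18 and -1.28, and for Ly6e 1.84 and 3.92.

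Within the P21 germ, Dmkn and Sbsn were found in the same cells. Of 33 cells with Dmkn, 29 had Sbsn (87.9%, 71.8 to 96.6), and of 38 without it, 8 did (21.1%, 9.55 to 37.3). The Spearman correlation of log2(TPM + 1) across the 71 cells was 0.76. Ly6e was found less often in cells with Dmkn: 16 of the 33 with Dmkn had it (48.5%, 30.8 to 66.5) against 31 of the 38 without (81.6%, 65.7 to 92.3), with a correlation of -0.51 for both Dmkn and Sbsn. These cells share 1 plate, and the number of genes detected moved with Ly6e (0.40) and Ly6d (0.44) but little with Dmkn (-0.07). With genes detected or the spike-in share held constant, or with Pearson's measure or rescaled TPM, Dmkn and Ly6e gave -0.53 to -0.49.

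Ly6d in the P21 germ went with Ly6e and not with Dmkn. All 13 cells with Ly6d had Ly6e, against 34 of 58 without it (58.6%, 44.9 to 71.4), a correlation of 0.43. With genes detected or the spike-in share held constant, and under the other measures, this was 0.31 to 0.43. Ly6d was in 6 of 33 cells with Dmkn and 7 of 38 without (-0.03). The 6 cells with Ly6a all had Ly6e. One of these 6 had 3 or more of 8 fibroblast genes, and its part in the result was not tested.

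At P23 to P24 these 3 pairs of Dmkn, Sbsn and Ly6e had the signs seen at P21. Dmkn and Sbsn correlated at 0.66 over 73 cells, with Sbsn in 31 of 36 cells with Dmkn, and Dmkn and Ly6e at -0.48, with Ly6e in 21 of 36 (58.3%) against 30 of 37 (81.1%). Sbsn and Ly6e gave -0.36. Here Dmkn moved with the spike-in share (0.54) and against genes detected (-0.36), and Ly6e with genes detected (0.45). Over the same alternatives the Dmkn and Sbsn value ran from 0.53 to 0.65 and that of Dmkn and Ly6e from -0.49 to -0.36. Ly6d and Ly6e gave 0.25, with 8 of 10 cells with Ly6d holding Ly6e.

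In the P25 to P27 matrix, Ly6d was found in the Dmkn cells. Of the cells with Dmkn, 75 had Ly6d (62%, 52.7 to 70.7), against 14 of the 78 without (17.9%, 10.2 to 28.3), and the correlation was 0.57 pooled and 0.38 to 0.69 by plate. Dmkn and Sbsn stayed together, at 0.72 (0.67 to 0.76 by plate), with Sbsn in 83.5% of cells with Dmkn (75.6 to 89.6) and 25.6% of those without (16.4 to 36.8). Sbsn and Ly6d gave 0.55 (0.35 to 0.72). Krtdap lay almost wholly inside the Dmkn cells, in 27.3% of these against 2.56% of the others, at 0.42 (0.27 to 0.60). Dmkn, Sbsn and Ly6d were all present in 66 cells (33.2%) and all absent in 49, and 23 cells (11.6%) had Krtdap as well.

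Ly6e in the matrix correlated with Dmkn at -0.05 (-0.25 to 0.09 by plate): 77 cells with Dmkn had it (63.6%, 54.4 to 72.2) and 60 of the 78 without (76.9%, 66 to 85.7). Without plate 915mat, or with genes detected held constant, the correlation was 0.04. Ly6d and Ly6e gave 0.31. The 16 cells with Ly6a were cells with Dmkn in 15 cases and with Ly6d in 14. Of these 16, 2 had 3 or more of 8 fibroblast genes, whose sum ran from 0 to 6988.5 TPM against 0 to 1171.1 in the cells without Ly6a. Likewise 2 had 3 or more of 7 endothelial genes (0 to 87.4 against 0 to 66.1 TPM), with Cdh5 and Cldn5 at 0 in all 16. The part of such cells in the result was not tested. The difference of any pairing between germ and matrix was not tested.

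In the bulge, where nearly all cells had both, Dmkn and Sbsn correlated at -0.16 over 39 cells. In the P30 hair bulb, Dmkn and Sbsn gave 0.42 and Dmkn and Ly6d 0.37, or 0.28 and 0.24 without plate P2-1. In the papilla, Ly6a was in 37.7% of cells with Ly6e and 12.1% of those without, at 0.35 pooled and 0.16 to 0.54 by plate. All 68 papilla cells with Ly6a had 3 or more fibroblast genes, as did 87.7% of those without it, and 19.1% against 5.58% had 3 or more of 7 pericyte genes. Split by Ly6e, the pericyte shares were 17% and 4.33%. The part of these in the result was not tested.

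**Figure D3:**
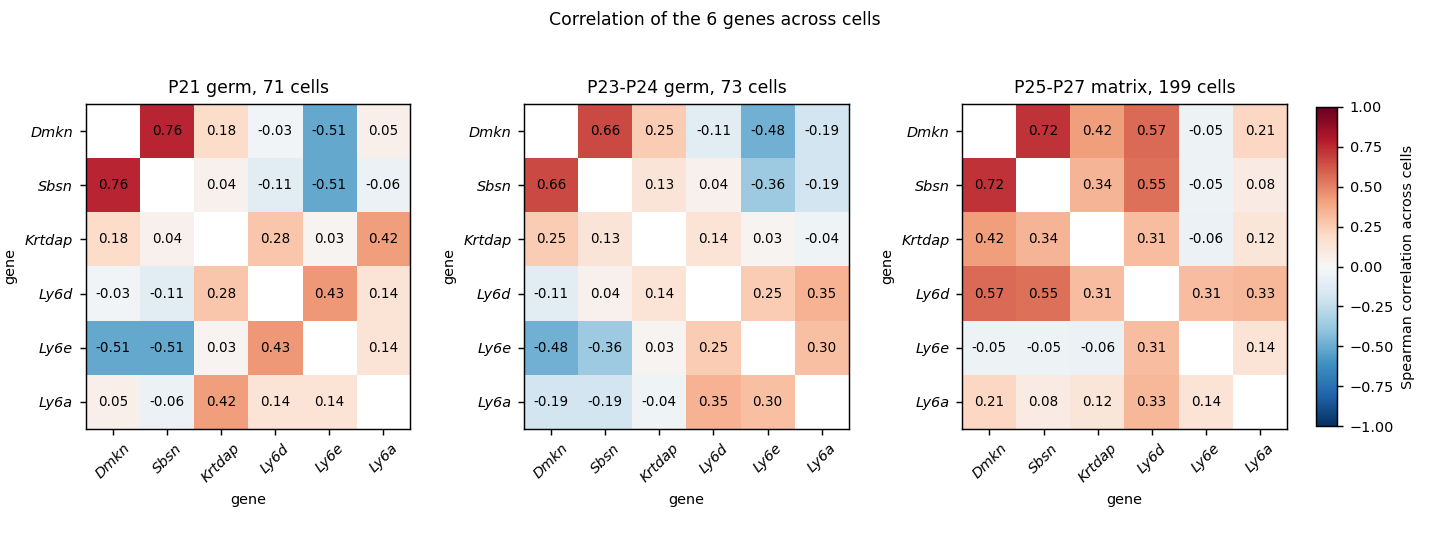
Spearman correlation of log2(TPM + 1) between each pair of the 6 genes across the cells of the P21 germ, P23 to P24 germ and P25 to P27 matrix, with red above 0 and blue below. Dmkn and Sbsn stand at 0.76, 0.66 and 0.72, while Dmkn with Ly6d is at -0.03, -0.11 and 0.57 and Dmkn with Ly6e at -0.51, -0.48 and -0.05.

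**Figure D4:**
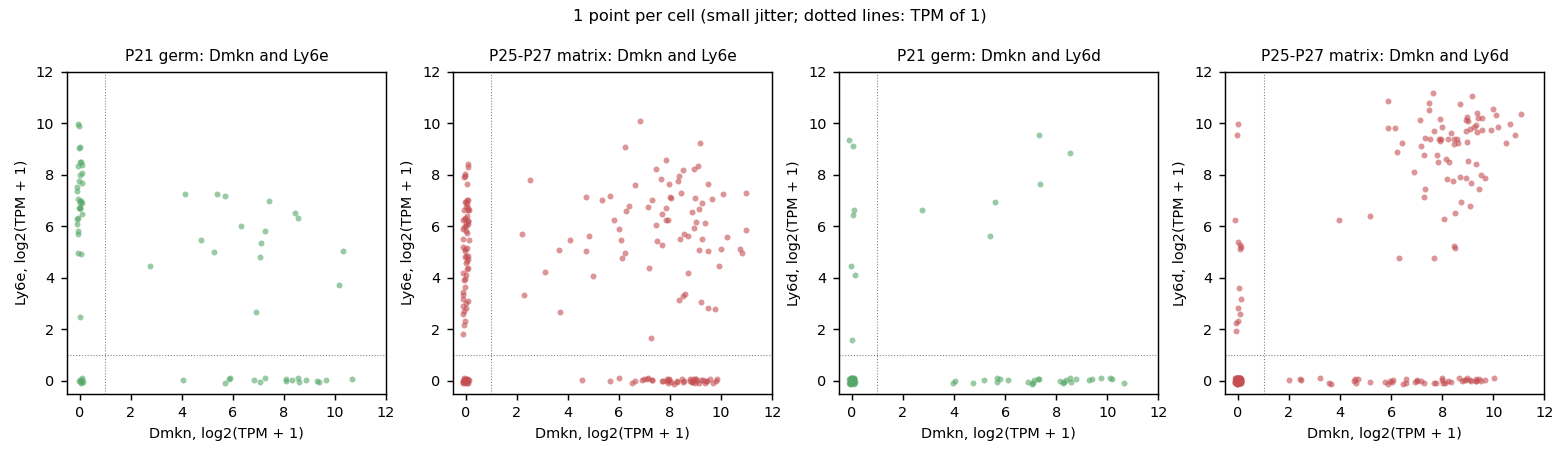
Dmkn (x) against Ly6e or Ly6d (y) as log2(TPM + 1), 1 point per cell with a small jitter, in the P21 germ and P25 to P27 matrix, with dotted lines at a TPM of 1. In the germ many cells lie on 1 of the 2 axes for Dmkn and Ly6e, and in the matrix 75 cells with both Dmkn and Ly6d fill the upper right corner.

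The genes most like each member were ranked by the Spearman correlation within plates, averaged over plates, among genes found in at least 20% of the group's cells. In the P21 germ, Dmkn was followed by Sbsn (0.76), Postn, a matricellular protein of the bulge (0.70), Fst, an antagonist of activins and BMPs (0.66), Sdc4, a heparan sulfate proteoglycan (0.65), and Apoe, a lipid carrier (0.63). Sbsn was followed by Dmkn, Sdc4 (0.69), Gas7 and the keratin Krt80 (both 0.68) and the calcium-binding S100a6 (0.67). Among those most like Ly6e were the ribosomal protein genes Rps7 (0.62), Rps28 (0.58) and Rps29 (0.56), and Nrp2, a semaphorin and VEGF co-receptor (0.57). Ly6d was led by Mzt1 (0.55), Usmg5 (0.54) and Timp3, an inhibitor of metalloproteases (0.52).

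In the matrix, Dmkn was followed by Anxa8, an annexin (0.83), Lgals7, a galectin of stratified epithelia (0.80), Cd109, a GPI-anchored TGF-beta co-receptor (0.78), Sdc4 (0.74) and Sbsn (0.72). Anxa8 was also first for Dmkn at P23 to P24 (0.83) and 10th at P21 (0.61). Postn, in contrast, gave 0.70 in the P21 germ, 0.51 in the P23 to P24 germ and 0.28 in the matrix. Among those most like Sbsn were Dmkn and Lgals7 (both 0.72), Anxa8 (0.71) and Nebl (0.67).

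Among the genes most like Ly6d in the matrix were Clca3a2, of the family of chloride channel accessory proteins (0.82), Tmem45a (0.76), Lgals7 (0.70) and Krt80 (0.69). Lgals7 had stood at 0.16 and -0.16 with Ly6d in the P21 and P23 to P24 germ. The highest for Krtdap were Cst6, a cystatin of cornifying epithelium (0.42), Krt80 and Fam25c (both 0.40), Gsn and Dmkn (both 0.39). No gene was above 0.38 with Ly6e, where Atp5g3, a mitochondrial ATP synthase subunit, was first.

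Lists of marker genes were set beside the members, as the number of listed genes with a correlation above 0 and the median of the list. In the P21 germ, 11 of 14 bulge genes were above 0 with Dmkn (median 0.34), where 56.8% of 9959 genes were and the median of all was 0.02. Postn (0.70), Sox9, a factor of bulge and outer sheath (0.61), Grem1, a BMP antagonist (0.46), and Nfatc1, a factor of quiescence (0.45), led. Of 10 hair germ genes 2 were above 0 (median -0.31), with Mfap2, a microfibril protein, at -0.48 and Msx2, a homeobox factor, at -0.43. Companion layer and inner bulge genes had a higher median than the bulge list, 0.50 (4 of 5, S100a6 0.63, Krt80 0.61), and basal keratinocyte genes one of 0.27 (9 of 9). Ly6e mirrored this, with 3 of 14 bulge genes above 0 (median -0.31, Nfatc1 -0.63) and 9 of 10 germ genes (median 0.33, with the Wnt inhibitor Notum at 0.45 and the placode factor Foxi3 at 0.38). The background for Ly6e was 66.9% with a median of 0.06, and Lgr5 alone of the germ genes was below 0, at -0.36. Ly6d had 9 of 9 measured interferon and MHC class I genes above 0 (median 0.24, H2-K1 0.41, B2m 0.37), with a background of 76.4% and 0.08. Ly6d was in 13 of 71 cells and moved with genes detected (0.44), whose part was not tested. With Ly6e, 7 of these 9 were above 0 (median 0.07), near its background.

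At P23 to P24 the cell cycle genes could be measured. None of 9 was above 0 with Dmkn (median -0.40, Cdk1 and Mki67 both -0.43), where 44.4% of genes were and the median was -0.02. All 9 were above 0 with Ly6e (median 0.46, Mki67 0.50, Ccnb1 0.49), where 79.9% were and the median was 0.12. With Dmkn, 12 of 14 bulge genes were above 0 (median 0.38), with Nfatc1 at 0.68 and the bulge keratin Krt15 at 0.66, and with Ly6e 8 of 9 germ genes (median 0.27). Basal keratinocyte genes (8 of 9, median 0.52, Krt5 and Col17a1 both 0.68) and companion layer and inner bulge genes (4 of 4, median 0.49, S100a6 0.71) had higher medians with Dmkn than the bulge list. Spike-in share and genes detected moved with both members as given above, and their part was not tested.

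In the matrix, hair germ genes lay below 0 with all of Dmkn, Sbsn, Krtdap and Ly6d. For Dmkn, 0 of 9 were above 0 (median -0.53), with Mfap2 at -0.76, Rasgef1b, an exchange factor, at -0.65, Foxi3 at -0.61 and Lef1, a Wnt effector, at -0.54. All genes had 30.7% above 0 and a median of -0.08. For Sbsn it was 0 of 9 (median -0.44, background 33.1%), for Krtdap 0 of 9 (median -0.26, background 37%) and for Ly6d 0 of 9 (median -0.42, background 39.4%). The sums say the same: matrix cells with Dmkn had a median of 36.5 TPM over the 10 germ genes against 401.8 in those without, and a median of 2 of them detected against 8. Cells with Dmkn also had fewer genes detected, a median of 5175.0 against 6125.5, whose part was not tested. For Ly6e, 6 of 9 germ genes were above 0 (median 0.01), against a background of 78.4% and 0.07. Matrix and inner root sheath genes went both ways. Their largest values in size with Dmkn were Hoxc13 (-0.60), Cux1 (-0.43), Smoc2 (-0.22) and Gata3 (0.08). With Ly6d they were Hoxc13 (-0.48), Gata3 (0.20), Cux1 (-0.18) and Prdm1 (-0.15).

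Interferon and MHC class I genes lay above 0 with Dmkn and Ly6d. With Dmkn, 11 of 11 were above 0 (median 0.37), with H2-K1 at 0.67, B2m, its light chain, at 0.66, H2-D1 at 0.64 and H2-Q7 at 0.58. The medians were 0.40 with Ly6d (11 of 11), 0.27 with Sbsn (11 of 11), 0.14 with Krtdap (10 of 11) and 0.11 with Ly6e (10 of 11), the last near the 78.4% and median of 0.07 of all genes. Infundibulum and isthmus genes, of the upper follicle, were highest with Ly6d, where 5 of 6 were above 0 (median 0.50) with Gata6, a factor of the sebaceous duct, at 0.60, Cst6 at 0.53, Plet1 at 0.51 and Fgfbp1, an FGF carrier, at 0.48. For Dmkn it was 6 of 6 (median 0.30). Of 25 listed epidermal differentiation genes only 5 were measured. All 5 were above 0 with Dmkn (median 0.43), Ly6d (0.38) and Krtdap (0.20), led by Lgals7. The backgrounds were 30.7%, 39.4% and 37%. The keratin Krt10, among the 5, was at 0.10, 0.21 and 0.18. With Sbsn all 5 were above 0 as well, from 0.12 for Krt10 to 0.72 for Lgals7. Of 14 bulge genes, 10 were above 0 with Dmkn (median 0.09), where 30.7% of all genes were. With Ly6d it was 6 of 14 (median -0.09), near the 39.4% of all genes. Median sums of immune, endothelial and fibroblast markers were 0 both with and without Dmkn, Ly6d, Krtdap or Ly6a. Of the cells with Dmkn, 2 had 3 or more of 10 immune markers, against 0 of those without, and the immune sum ran to 3975.9 TPM against 54.6, with Cd3e and Cd207 at 0. Those with 3 or more fibroblast markers were 4 and 2. Their part in these values was not tested.

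**Figure D5:**
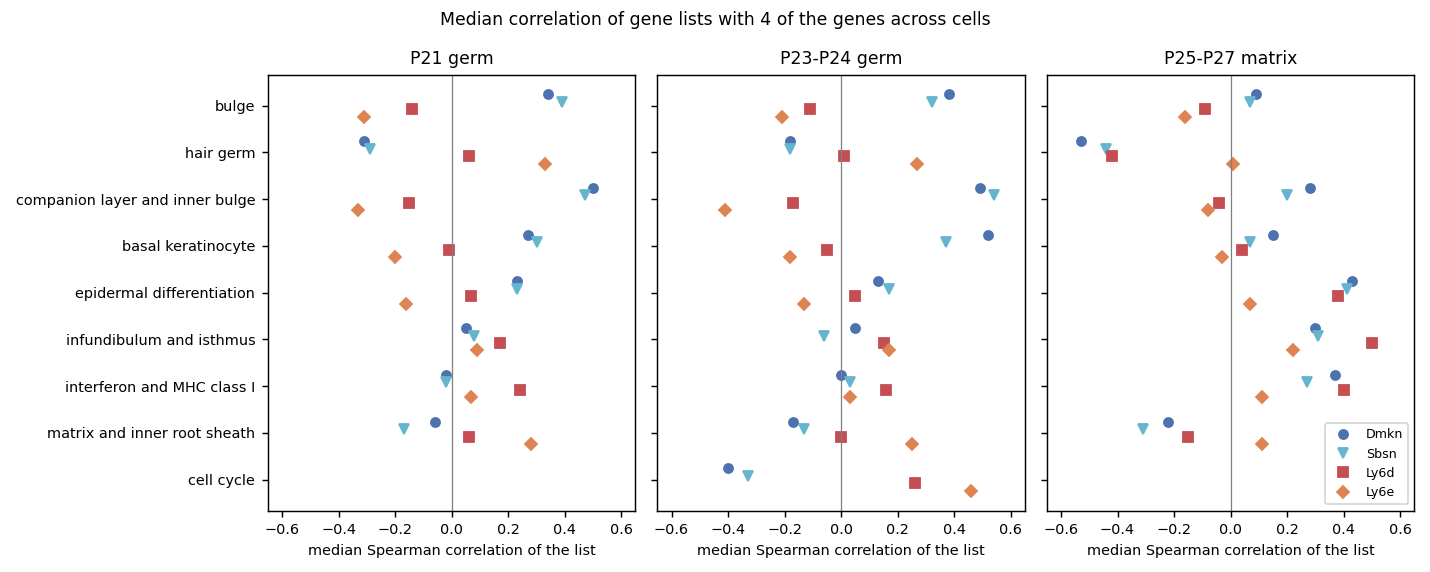
Median Spearman correlation of each gene list (rows) with Dmkn, Sbsn, Ly6d and Ly6e (symbols) across the cells of 3 groups. Bulge and germ lists part Dmkn and Sbsn from Ly6e in both germ groups, and in the matrix the hair germ list lies at -0.53 for Dmkn and -0.42 for Ly6d but at 0.01 for Ly6e.

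At P30, the genes most like Ly6e in the hair bulb were Cmah, a sialic acid hydroxylase, and Celsr1, a planar polarity cadherin (both 0.42), H2-Q4 (0.39), Epcam, an epithelial adhesion protein, and Erap1, a peptidase of antigen processing (both 0.37). All 10 cell cycle genes were above 0 with Ly6e there (median 0.23, background 83.3% with a median of 0.09), as were 9 of 10 interferon and MHC class I genes (median 0.13). Of 7 measured melanocyte markers 1 was above 0 (median -0.19, Mlana -0.25). Those most like Ly6a in the papilla were S100a4 (0.38), the collagen VI chains Col6a1 (0.37) and Col6a2 (0.35), Lgals3 and Crip1 (both 0.35). Of 7 measured papilla markers 3 were above 0 (median -0.04), with Rspo3, a Wnt enhancer, at -0.23, and of 5 fibroblast markers 4 were (median 0.08), against a background of 76% and 0.05.

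Of 33 other listed genes of the Ly6/uPAR family 31 were measured and 8 of these were found in no cell. Between 4 and 6 of them reached 10% of cells in a given group. Ly6g6c reached 34 matrix cells (17.1%, mean 55.7 TPM), and its mean in any other group was at most 1.89 TPM. Of its 34 cells, 34 had Sbsn, 33 Dmkn, 30 Ly6d and 18 Krtdap. In matrix cells without Ly6g6c these shares were 52.7%, 53.3%, 35.8% and 10.3%. Ly6g6c gave correlations of 0.61 to Sbsn, 0.54 to Ly6d and 0.02 to Ly6e. Ly6g6e was found in 21 matrix cells (10.6%), of which 19 had Dmkn and 18 Ly6d, against 57.3% and 39.9% of cells without it. Lypd3, a keratinocyte surface protein also known as C4.4A, was in 61 matrix cells (0.51 with Ly6d) and in 77.1% of hair bulb cells. Lypd6, a Wnt co-receptor partner, ran the other way: 9 of its 32 matrix cells had Dmkn (28.1%) and 30 had Ly6e. Of matrix cells without Lypd6, 67.1% had Dmkn and 64.1% Ly6e.

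The neighbours of the members within 100 kb were low. Around Sbsn, Dmkn and Krtdap, 3 of 17 other rows were found in at least 30% of the cells of any group: Tmem147, an endoplasmic reticulum protein, at 18.5 to 40.7 TPM, Haus5, of the augmin complex, and the noncoding Tmem147os. Around Ly6d it was 0 of 17, and around Ly6e and Ly6a 1 of 12, 2010109I03Rik, at a mean of at most 1.16 TPM. Tmem147os was first among genes like Sbsn in the P30 hair bulb (0.36), ahead of Abtb2 (0.27) and Emp2 (0.26). Its row ends 5542 bases before Sbsn on the same strand in GENCODE M21. The annotation the authors counted with is not given in the sources used here, and whether the 2 rows share reads was not tested. Pooled, Sbsn and Tmem147os gave 0.36 in the P23 to P24 germ, 0.35 in the hair bulb, 0.33 in the bulge, 0.28 in the P21 germ, 0.15 in the matrix, 0.10 in the papilla and -0.08 in the late germ.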

How the data were processed

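Each sample is 1 cell of mouse back skin, sequenced by Smart-seq2 with Nextera XT libraries on an Illumina NextSeq, per the labels' protocols. The authors deposited TPM in 3 tables of 46609 rows, of which 92 are spike-ins, and a table of cell types (other: text labels). Bowtie2 2.2.9, RSEM 1.2.30 and mm10 are named, per the submitters' processing notes. Strand use and annotation are not given in the sources used here. The papilla table parts its fields by a slash and a letter t, and was read so. Columns summed to 999999.02 to 1000000.77, 0 columns had no sample and 0 repeated another cell. Rows treated here as ribosomal (360) held medians of 54.3% to 76.4% of TPM.

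The 6 members and the gene lists were chosen with earlier results of these data known. No animal is named, so no test was run. Differences are of mean log2(TPM + 1), with a pseudocount of 1, over genes positive (TPM at or above 1) in 30% of either group's cells. Beside the members, named genes are the 5 most like each member among genes in 20% of cells, where the member is in 10% to 95% of cells, with positive values on every plate of 10 or more cells and without predicted models, up to 4 of each list with the largest values, and neighbours within 100 kb found in 30% of the cells of a group. Anxa8 at P23 to P24, and the Ly6 family genes and paralogs, were named after their values were seen. Some genes that this rule names are not reported here. Doublets were not called. Calls of 2-fold and correlations were tested on simulated data. Alternatives were other pseudocounts, ratios of means, rescaled TPM, cells with 2000 or more genes, other TPM thresholds, Pearson and partial correlations and leaving out plates. Python 3.11.15, numpy 2.4.6, pandas 2.3.3, scipy 1.17.1 and matplotlib 3.10.9 were used.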

Additional observations from a re-analysis of the deposited data

How the results depend on the processing

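Of 405 alternative values, 73 moved, 3 reversed a difference of 2-fold or more, and the others stayed within their tolerance. Smaller values changed sign as well: 4 alternatives of 2 matrix correlations reported as -0.05 (Dmkn with Ly6e, to at most 0.04, and Sbsn with Ly6e, to at most 0.09), and 8 alternatives of 4 log2 differences of at most 0.40. No correlation of 0.2 or more in size did so. As log2 ratios of mean TPM + 1, 5 of all 6 genes were past 2-fold for bulge against P21 germ (3 as reported), 2 for P23 to P24 against P21 germ (0) and 5 for the matrix of P25 to P27 set against the P23 to P24 germ (3, Krtdap included). The cause was not tested. Sbsn reversed 3 times. In the late germ against the P23 to P24 germ it did so without plate 913hg, to -0.54 with 2 cells left. In the matrix against the late germ it gave 1.11 without that plate and 1.01 as a log2 ratio of mean TPM + 1. Ly6d was in 52.8% of matrix cells without plate 915mat. Without the filter on low values the share of genes past 2-fold fell to 2.44%, 3.25%, 4.34%, 2.53% and 2.52% in the 5 comparisons in the order of the report, as genes in few cells entered. The partial correlation given the spike-in share, and the hair bulb without plate P2-1, were chosen after seeing the data. No paired analysis was possible because no result comes from a test and compared groups share at most 1 number in their plate names (819b with 819hg, 914hg with 914mat), with single cells as the samples. Each group of germ and bulge cells rests on 1 plate, apart from 2 late germ cells, and read depth is unknown.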

Other observations

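Genes that ran against the members were looked up after the values were seen, and are given as correlations within plates. In the P25 to P27 matrix, the lowest with Dmkn beside Mfap2 (-0.76) were Slc7a2, a transporter of cationic amino acids (-0.75), Atp6v1b1, a proton pump subunit (-0.71), Nup210, a nucleoporin (-0.68), and Slc38a4, an amino acid transporter (-0.68). With Ly6d they were Npnt, a basement membrane ligand of integrins (-0.60), and Gli2, a hedgehog effector (-0.59). In the P21 germ, Wif1, a Wnt inhibitor (-0.52), and Gli1, a hedgehog target (-0.49), were among the lowest with Dmkn. The lowest with Ly6e were Nfatc1 (-0.63), Adamtsl4 (-0.57) and Col17a1, a hemidesmosome collagen (-0.56). In the P30 hair bulb Gpnmb, a pigment cell glycoprotein, was lowest with Ly6e (-0.34), and in the papilla Scube3 (-0.24) and Rspo3 (-0.23) were lowest with Ly6a.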
